A study of Mus musculus with 48 samples.

Results

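Toll-like receptors are sensors of microbial and damaged-cell material, and the 10 genes described here are Tlr1, Tlr2, Tlr3, Tlr4, Tlr5, Tlr6, Tlr7, Tlr8, Tlr9 and Tlr13. They were taken by name, as the receptor rows of a table of 18782 genes, and all 10 were in the table and passed the filter on low counts. RNA had been sequenced from the thoracic aorta of 48 C57BL/6J mice, with 1 library per mouse. FeCon (n = 10) and MaCon (n = 10) were female and male controls on plain drinking water. FeNonAD (n = 8) and MaNonAD (n = 4) were females and males that drank 0.4% BAPN for 28 days from 3 weeks of age and had no lesion detected in the aorta. FeAAD (n = 9) and MaAAD (n = 7) drank the same and had a dissection or an aneurysm. BAPN, β-aminopropionitrile, inhibits lysyl oxidase, so that newly laid matrix fibres stay without cross-links. As a model, the AAD groups join dissection with aneurysm and hold mice alive at the end of the 28 days, and the segment taken was the lesioned one. The comparisons ask whether receptor transcripts differ with BAPN alone, with a lesion, and between the sexes.

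Toll-like receptors sit in membranes with a leucine-rich part that binds the ligand and an inner TIR domain that recruits adaptor proteins. Tlr1, Tlr2, Tlr4, Tlr5 and Tlr6 work at the cell surface, where they bind bacterial wall components and flagellin. Tlr3, Tlr7, Tlr8, Tlr9 and Tlr13 work inside endosomes, where they bind nucleic acids. Signalling through the adaptors Myd88 and Ticam1 reaches NF-κB and interferon regulatory factors and switches on cytokine genes. In the vessel wall macrophages are the best known carriers of these receptors, and Tlr4 and Tlr3 are also made by smooth muscle cells, fibroblasts and endothelium.

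Levels are given as CPM, a gene's count divided by the TMM-scaled total of its library and multiplied by 1000000. Library totals lay between 13548003 and 17281262 counts. Over 14431 genes in edgeR's quasi-likelihood test, a gene was called where it passed an adjusted p of 0.05 (Benjamini-Hochberg) and moved by 1 or more on the log2 scale, which is named the fold threshold here. Errors of log2 fold changes are approximate standard errors. Smooth muscle markers, the defining genes of this tissue, were the most abundant of the marker lists in every group, with a summed level of 11730 CPM or more in all libraries. Library FeAAD5 stood apart, as it was the highest of the FeAAD group for 7 of the 10 receptors, and MaAAD7 was the highest of the MaAAD group for 9. FeAAD5 also had the highest summed macrophage marker level, at 6146 CPM, and neutrophil marker level, at 1157 CPM, of its group, where the medians were 1419 and 17.7 CPM. In MaAAD7 these sums were 4229 and 405.2 CPM, against group medians of 1984 and 30.4 CPM. Values without these libraries are given where a call or its size rests on them.

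On the GRCm38 assembly with GENCODE M21 annotation, Tlr1 (chr5:64924679-64933563) and Tlr6 (chr5:64952031-64960097) are neighbours on the minus strand. Tlr2 lies on chromosome 3, Tlr3 on chromosome 8, Tlr4 on chromosome 4, Tlr5 on chromosome 1 and Tlr9 on chromosome 9, while Tlr7, Tlr8 and Tlr13 lie on the X chromosome. The deposited counts were made on GRCm39, so these positions serve only to place the genes. The coding parts of Tlr1 and Tlr6 are near copies of each other over part of their length. They share an unbroken run of 229 identical bases, from base 1468 to 1696 of the Tlr1 open reading frame and from base 1507 to 1735 of that of Tlr6. The lines here show, 5′ to 3′ on the coding strand, the last 60 bases of that run and the 60 bases that follow it, with the 2 bases at which the genes differ in capitals, because these letters set which reads can be told apart.
Tlr1: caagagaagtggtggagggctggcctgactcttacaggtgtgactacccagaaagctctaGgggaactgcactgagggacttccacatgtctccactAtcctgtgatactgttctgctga
Tlr6: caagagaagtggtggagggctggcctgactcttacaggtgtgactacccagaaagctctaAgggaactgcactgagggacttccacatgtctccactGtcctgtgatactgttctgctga

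Of the 50-base windows of the Tlr1 transcripts, 13.6% occur in Tlr6, and of those of Tlr6, 12.3% occur in Tlr1. In 25 libraries each, the deposited values of Tlr1 and Tlr6 were not whole numbers, which means that some reads were split among genes by estimate, and the levels of these neighbours are uncertain to that extent. Tlr7 had such values in 44 libraries, although its annotated transcripts share no window with those of another gene. The other 7 receptors had whole values throughout.

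RefSeq gives promoters for 8 of the 10 receptors on GRCm38.p6, with none for Tlr4 and Tlr7. The 10 promoter windows of 300 bases were searched on both strands for GAGGAA, the core letters bound by PU.1, a transcription factor of macrophages and B cells. It was present in 4 windows, 1 each of Tlr1, Tlr8, Tlr9 and Tlr13, and in 28.3% of 32851 windows of all genes. A count of 4 in 10 is near that share and is not a result about the receptors. For these 4, the 150 bases before the start site are shown so that the matches can be read in place, 5′ to 3′ towards the gene, with GAGGAA or its reverse complement in capitals.
Tlr1 (chr5:64933559-64933708, minus strand): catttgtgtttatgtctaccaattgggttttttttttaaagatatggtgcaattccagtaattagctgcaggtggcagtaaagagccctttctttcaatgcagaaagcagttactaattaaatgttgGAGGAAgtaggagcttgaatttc
Tlr8 (chrX:167264330-167264479, minus strand): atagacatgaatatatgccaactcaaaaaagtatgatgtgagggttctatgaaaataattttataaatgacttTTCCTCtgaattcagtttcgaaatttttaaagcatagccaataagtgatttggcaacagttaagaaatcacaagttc
Tlr9 (chr9:106222448-106222597, plus strand): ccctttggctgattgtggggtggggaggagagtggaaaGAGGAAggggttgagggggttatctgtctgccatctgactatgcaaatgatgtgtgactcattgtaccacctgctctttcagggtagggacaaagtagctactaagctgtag
Tlr13 (chrX:106143125-106143274, plus strand): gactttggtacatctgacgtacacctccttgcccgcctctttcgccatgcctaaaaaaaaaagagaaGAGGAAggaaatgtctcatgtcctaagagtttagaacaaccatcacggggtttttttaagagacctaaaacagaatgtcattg

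The first base of the motif lay at -23 in Tlr1, -77 in Tlr8, -112 in Tlr9 and -83 in Tlr13, counted from the start site. Tlr9 held it once more, 12 bases after the start site on the other strand. The core of the interferon-stimulated response element was found only in a Tlr6 window, in 2 overlapping copies, and in 3.44% of all windows. Sites of the NF-κB consensus, known as kappa-B sites, were found 3 times in Tlr2 and once in Tlr3, and in 4.51% of all windows. Some of those in Tlr2 overlap. A match describes the letters of the window and shows no binding.

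In control aortas Tlr4 was by far the most abundant receptor transcript. Per kilobase of the longest annotated transcript, its mean level and SD over 10 libraries were 15.2 ± 3.02 CPM in FeCon and, again over 10, 10.8 ± 1.83 CPM in MaCon. Tlr2, which pairs with Tlr1 or Tlr6 to bind bacterial lipoproteins, came next at 4.59 ± 0.66 and 3.93 ± 1.12 CPM per kilobase (SD, n = 10 each). Tlr4 was above Tlr2, and Tlr2 above Tlr3, in all 20 control libraries. Tlr3 and Tlr7 followed at 1.55 and 1.28 CPM per kilobase in FeCon, where Tlr3 was the higher in only 6 of 10 libraries, and at 1.73 and 1.16 in MaCon, where it was the higher in all 10. At the bottom stood Tlr1 at 0.278 and 0.265, and Tlr9 at 0.133 and 0.155 CPM per kilobase in FeCon and MaCon. Between them, Tlr5, Tlr6, Tlr8 and Tlr13 had mean levels from 0.348 to 0.866, and Tlr5 and Tlr6 could not be ordered in either sex, with Tlr5 the higher in 4 of 10 libraries.

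**Figure D1:**
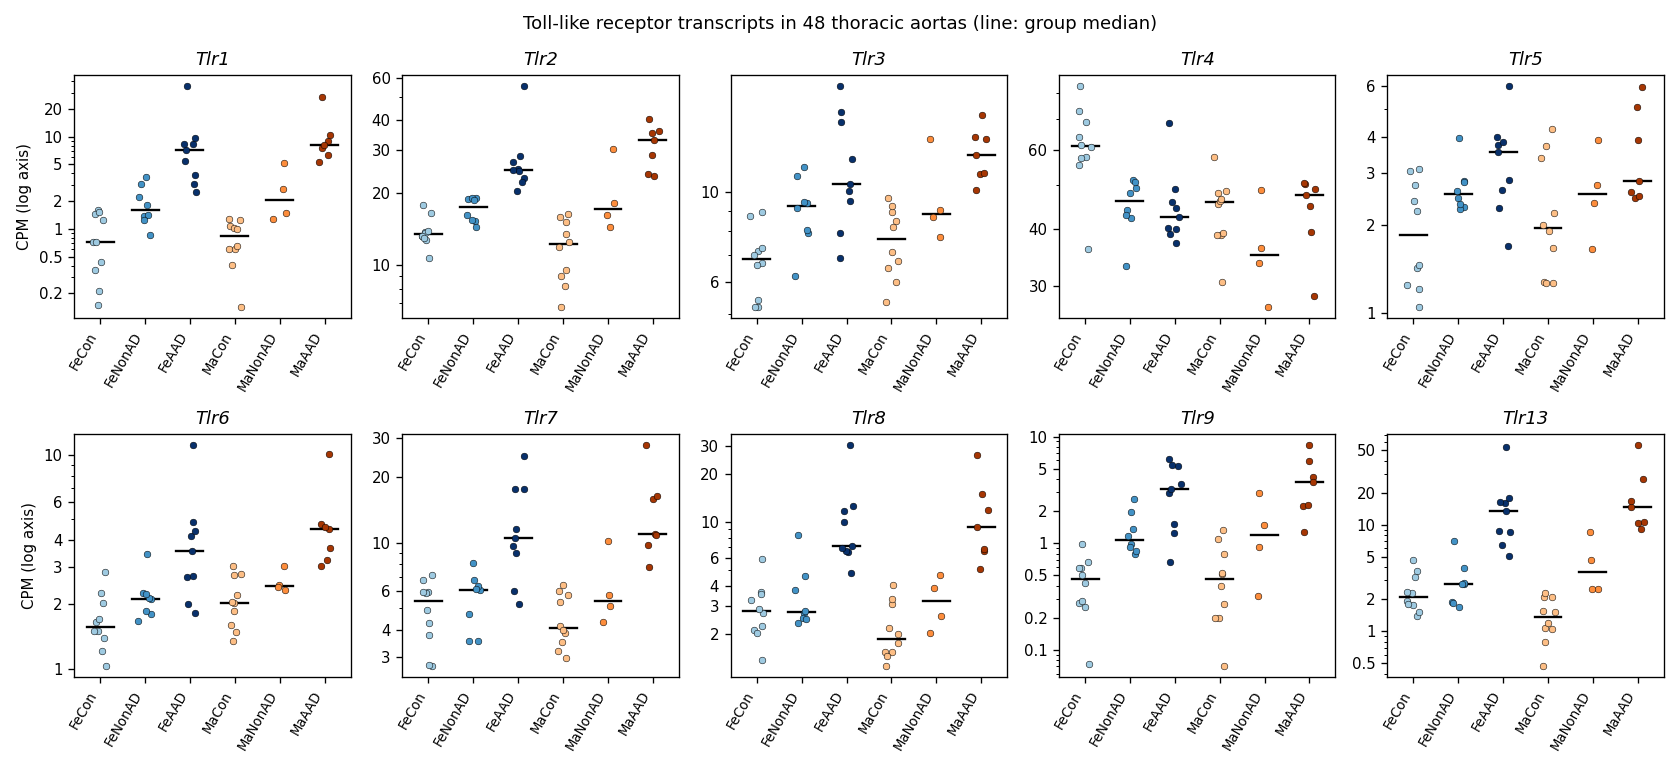
Level of each receptor in every library, in CPM on a log axis, by group, with a line at the group median. All 9 FeAAD and 7 MaAAD libraries lie above all controls of their sex for Tlr1, Tlr2 and Tlr13, whereas Tlr4 is highest in FeCon.

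Between FeAAD and FeCon, 7 of the 10 receptors were called higher and none lower, where 9.94% of all tested genes were called higher. Between MaAAD and MaCon the same count, 7 of 10, was called higher, where 9.18% of all tested genes were. The 7 were Tlr1, Tlr2, Tlr6, Tlr7, Tlr8, Tlr9 and Tlr13 in each sex. The median log2 fold change of the receptors was 1.30 in females and 1.53 in males, beside 0.0013 and -0.0296 over all tested genes. At an adjusted p under 0.05 alone, 10 receptors passed in females, where 44.4% of tested genes did, and 9 in males, where 35.0% did. Because these are bulk samples, more cells of a type and more RNA per cell, or fewer and less, cannot be told apart.

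Among the surface receptors, Tlr1 moved most. In FeCon its lowest, median and highest levels were 0.149, 0.723 and 1.58 CPM, and in FeAAD they were 2.53, 7.09 and 35.6 CPM. In MaCon they were 0.141, 0.829 and 1.28 CPM, and in MaAAD 5.35, 8.21 and 26.9 CPM. No lesioned aorta overlapped a control of its sex. Tlr1 differed by a log2 fold change of 3.45 ± 0.44 (SE) in females (adjusted p = 2.54e-08) and 3.70 ± 0.46 (SE) in males (adjusted p = 2.99e-08). Without FeAAD5, whose level was 35.6 CPM, the female value was 2.83 (adjusted p = 1.04e-07), and without MaAAD7 the male value was 3.27 (adjusted p = 3.61e-07).

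Tlr2 started from a higher level and changed less. It ranged from 10.7 to 17.8 CPM with a median of 13.4 in FeCon, and from 20.4 to 55.5 CPM with a median of 24.8 in FeAAD. In males it ranged from 6.68 to 16.3 CPM with a median of 12.2 in MaCon, and from 23.4 to 40.5 CPM with a median of 32.9 in MaAAD. The groups did not overlap in either sex. As a log2 fold change this was 1.01 ± 0.16 (SE) in females (adjusted p = 1.47e-06) and 1.41 ± 0.17 (SE) in males (adjusted p = 1.64e-08). Without FeAAD5 the female value was 0.82, under the fold threshold, at an adjusted p of 7.02e-06.

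Tlr6, the other partner of Tlr2, had medians of 1.57 CPM in FeCon (1.03 to 2.82) and 3.56 CPM in FeAAD (1.82 to 11.2). In males the medians were 2.03 CPM in MaCon (1.35 to 3.01) and 4.49 CPM in MaAAD (3.01 to 10.1). The female groups overlapped, with 5 of 9 FeAAD libraries above every FeCon library, and the male groups met at 3.01 CPM. Its log2 fold change came to 1.28 ± 0.25 (SE) in females (adjusted p = 4.31e-05) and 1.20 ± 0.26 (SE) in males (adjusted p = 0.000243). Without FeAAD5 it was 0.94, and without MaAAD7 it was 0.91, both under the fold threshold with adjusted p of 0.000475 and 0.00456.

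Tlr4, the receptor for bacterial lipopolysaccharide, was the exception. Its lowest, median and highest levels were 36.2, 61.1 and 83.0 CPM in FeCon, 33.1, 46.1 and 51.5 CPM in FeNonAD, and 37.2, 42.6 and 68.6 CPM in FeAAD. In 9 of 10 FeCon libraries it was above every FeNonAD library, and the remaining one, FeCon3, was at 36.2 CPM. It was lower in FeAAD than in FeCon, at -0.45 ± 0.12 on the log2 scale (SE) with an adjusted p of 0.00289, and lower in FeNonAD than in FeCon, at -0.45 ± 0.13 with an adjusted p of 0.0146. These comparisons share the FeCon libraries. Both changes are under the fold threshold. In males the levels were 30.6, 45.8 and 57.9 CPM in MaCon and 28.5, 47.6 and 50.5 CPM in MaAAD, which is 0.01 ± 0.13 on the log2 scale (SE) at an adjusted p of 0.955. An approximate 95% interval of that male value runs from -0.25 to 0.27. The difference between the sexes in the AAD response of Tlr4 came to 0.46 ± 0.18 (SE) at an adjusted p of 0.19, and did not pass the test.

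Tlr5, the flagellin receptor, differed by less than the fold threshold. Its medians were 1.84 CPM in FeCon (1.04 to 3.11) and 3.55 CPM in FeAAD (1.69 to 5.99), and 1.96 CPM in MaCon (1.27 to 4.27) and 2.81 CPM in MaAAD (2.47 to 5.94). The groups overlapped in both sexes. Females had a log2 fold change of 0.77 ± 0.25 (SE) at an adjusted p of 0.00998, and males had 0.65 ± 0.26 at an adjusted p of 0.0472. Without MaAAD7, at the top of the MaAAD range, the male value was 0.49 and did not pass (adjusted p = 0.174).

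Of the endosomal receptors, Tlr13, which binds bacterial ribosomal RNA in mice, and Tlr9 had the largest differences, Tlr13 first in males and Tlr9 slightly ahead in females. The lowest, median and highest levels of Tlr13 were 1.39, 2.10 and 4.66 CPM in FeCon and 5.14, 13.5 and 54.1 CPM in FeAAD. In MaCon they were 0.471, 1.36 and 2.29 CPM, and in MaAAD 9.10, 14.6 and 56.4 CPM. Neither sex had an overlap between AAD and control. On the log2 scale the change was 2.72 ± 0.38 (SE) in females (adjusted p = 1.44e-07) and 3.86 ± 0.41 (SE) in males (adjusted p = 1.89e-09). It was 2.22 without FeAAD5 and 3.37 without MaAAD7. The male response exceeded the female one by 1.14 ± 0.54 (SE), which did not pass the test (adjusted p = 0.298). That difference was 0.65 (adjusted p = 0.549) without MaAAD7 and 1.63 (adjusted p = 0.061) without FeAAD5.

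Tlr9, the receptor for unmethylated CpG DNA, was the scarcest of the 10 in controls, with 1 to 15 counts in FeCon and 1 to 20 in MaCon. Its levels ran from 0.0744 to 0.984 CPM with a median of 0.462 in FeCon, and from 0.665 to 6.18 CPM with a median of 3.19 in FeAAD. In MaCon they ran from 0.0703 to 1.34 CPM with a median of 0.457, and in MaAAD from 1.27 to 8.39 CPM with a median of 3.71. All but 1 library of each AAD group lay above every control of the same sex. The log2 fold change was 2.82 ± 0.43 (SE) in females (adjusted p = 9.1e-07) and 2.87 ± 0.44 (SE) in males (adjusted p = 1.37e-06). FeAAD5, the highest FeAAD library for 7 other receptors, was the median library here at 3.19 CPM. Without MaAAD7 the male value was 2.58 (adjusted p = 1.49e-05).

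Tlr7 and Tlr8 are neighbours on the X chromosome. Tlr7, which binds single-stranded RNA, had medians of 5.39 CPM in FeCon (2.72 to 7.08) and 10.5 CPM in FeAAD (5.26 to 25.0), and of 4.07 CPM in MaCon (2.96 to 6.41) and 11.0 CPM in MaAAD (7.74 to 28.1). Its log2 fold change was 1.31 ± 0.25 (SE) in females (adjusted p = 2.48e-05) and 1.65 ± 0.26 (SE) in males (adjusted p = 1.9e-06). Tlr8, its close relative, had medians of 2.78 CPM in FeCon (1.38 to 5.90) and 7.13 CPM in FeAAD (4.83 to 30.5), and of 1.88 CPM in MaCon (1.26 to 4.06) and 9.37 CPM in MaAAD (5.10 to 26.3). Its log2 fold change was 1.85 ± 0.31 (SE) in females (adjusted p = 5.36e-06) and 2.38 ± 0.33 (SE) in males (adjusted p = 3.01e-07). In males neither gene overlapped between the groups, and in females 7 of 9 FeAAD libraries for Tlr7 and 8 of 9 for Tlr8 lay above every control.

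Tlr3, which binds double-stranded RNA, rose in both sexes by less than the fold threshold. Its medians were 6.84 CPM in FeCon (5.19 to 8.92), 10.5 CPM in FeAAD (6.89 to 18.3), 7.68 CPM in MaCon (5.34 to 9.67) and 12.3 CPM in MaAAD (10.1 to 15.5). Females had a log2 fold change of 0.79 ± 0.15 (SE) at an adjusted p of 3.08e-05, and males had 0.71 ± 0.16 at an adjusted p of 0.000352. MaAAD7, the highest library of its group for the other 9 receptors, was the lowest for Tlr3, at 10.1 CPM.

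Counted over all receptors, AAD and control libraries did not overlap for Tlr1, Tlr2 and Tlr13 in females, 3 of 10 beside 3.63% of all tested genes. In males they did not overlap for 7 of 10, all but Tlr4, Tlr5 and Tlr9, beside 6.14% of all tested genes.

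**Figure D2:**
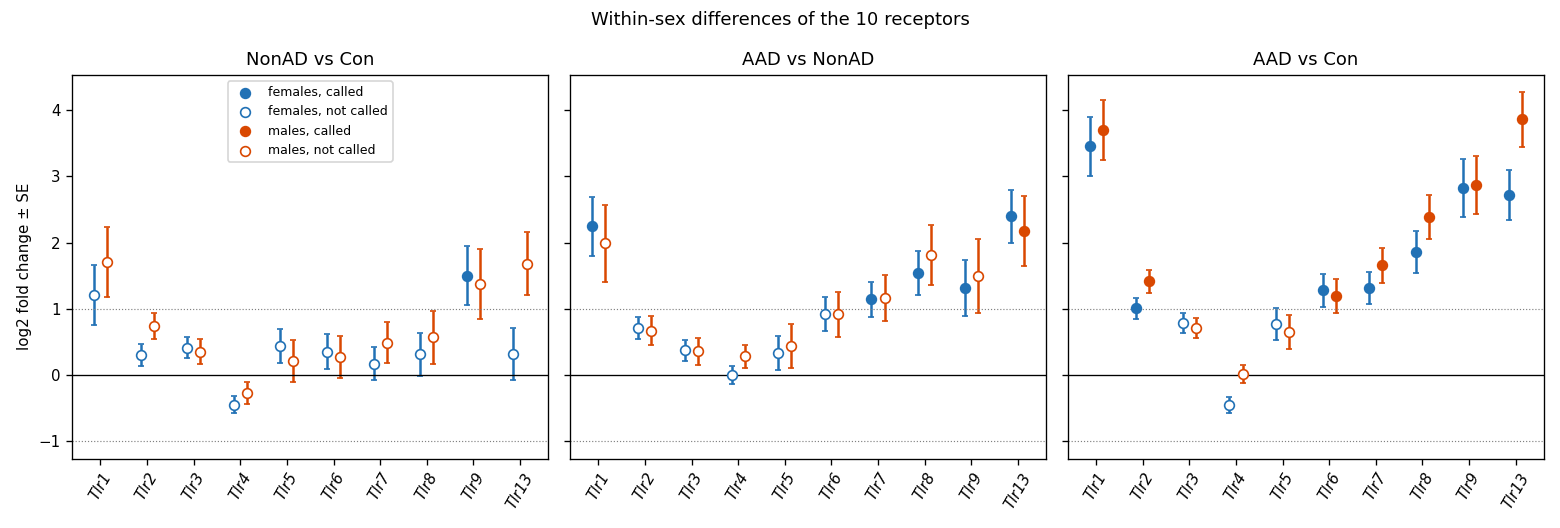
Log2 fold change of each receptor with its approximate standard error, for NonAD against control, AAD against NonAD and AAD against control, with females in blue and males in orange. Filled points passed both thresholds, dotted lines mark a log2 fold change of 1 and -1, and Tlr4 is the only receptor at or under 0 in the comparison of FeAAD with FeCon.

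With BAPN and no lesion, fewer receptors were called. These comparisons use the same control libraries as those of the lesioned aortas. Between FeNonAD and FeCon 1 of 10 receptors was called higher, where 1.67% of tested genes were, and none was called lower. It was Tlr9, with levels from 0.799 to 2.61 CPM and a median of 1.07 in FeNonAD. Tlr9 differed by 1.50 ± 0.45 on the log2 scale (SE) at an adjusted p of 0.019, and 5 of 8 FeNonAD libraries lay above every control. Without FeNonAD8, which held the highest Tlr9 level at 2.61 CPM, the value was 1.29 with an adjusted p of 0.0574. Tlr1 ranged from 0.867 to 3.69 CPM with a median of 1.62 in FeNonAD, and its log2 fold change of 1.21 ± 0.45 (SE) did not pass the test (adjusted p = 0.0646). The other receptors had log2 fold changes between -0.45 and 0.44 in this comparison.

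Between MaNonAD and MaCon no receptor was called by edgeR's test, where 0.381% of tested genes were called higher. At an unadjusted p under 0.05, 4 of 10 receptors passed, where 12.0% of tested genes did. DESeq2 called 1 of 10 higher, Tlr13, where it called 0.487% of its tested genes higher. The Tlr13 levels of the 4 MaNonAD libraries were 8.62, 2.48, 4.67 and 2.47 CPM, all above the highest MaCon library at 2.29 CPM. A receptor without overlap is 1 of 10 beside 0.617% of all tested genes. The change of Tlr13 was 1.68 ± 0.47 on the log2 scale (SE) at an adjusted p of 0.0807, and 1.17 (adjusted p = 0.725) without MaNonAD1. Tlr1 levels were 5.15, 1.27, 2.69 and 1.47 CPM, a log2 difference of 1.71 ± 0.53 (SE) from MaCon at an adjusted p of 0.13, and 1.16 without MaNonAD1. The highest value of both genes was in MaNonAD1, which was the highest of its group for 8 of the 10 receptors. Its summed macrophage marker level was 1068 CPM, the highest of the 4, with MaNonAD3 close to it at 1015 CPM. Tlr2 was at 30.5 CPM in MaNonAD1 and at 16.2, 18.1 and 14.4 CPM in the others (log2 fold change 0.74 ± 0.20, SE, adjusted p = 0.0689). Its value was 0.45 (adjusted p = 0.755) without MaNonAD1, and it passed the adjusted p but not the fold threshold without MaNonAD2 (0.85, adjusted p = 0.0469) or MaNonAD4 (0.87, adjusted p = 0.0371).

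From NonAD to AAD, 5 of 10 receptors were called higher in females, where 6.79% of tested genes were. They were Tlr13 (log2 fold change 2.39 ± 0.40, SE), Tlr1 (2.25 ± 0.44), Tlr8 (1.54 ± 0.33), Tlr9 (1.32 ± 0.42) and Tlr7 (1.14 ± 0.26), with adjusted p from 9.96e-05 to 0.0243. At an adjusted p under 0.05 alone 7 passed, where 18.2% of tested genes did, the further members being Tlr2 and Tlr6, of which Tlr6 did not pass without FeAAD5 (0.58, adjusted p = 0.0896). Tlr2 was the only receptor whose FeAAD and FeNonAD libraries did not overlap, with the lowest FeAAD library at 20.4 CPM and the highest FeNonAD library at 19.0 CPM, beside 0.166% of all tested genes. FeNonAD8 was the highest of its group for 6 receptors, among them Tlr1, Tlr7, Tlr8, Tlr9 and Tlr13. Without FeAAD5, 4 receptors were called in this comparison, as Tlr7 came to 0.95 (adjusted p = 0.00941), and Tlr1 came to 1.62 (adjusted p = 0.00338). Without FeNonAD8, 6 were called, as Tlr6 came to 1.05 (adjusted p = 0.00405). Over all tested genes, 4.95% were called in either direction without FeAAD5 and 8.19% without FeNonAD8.

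Between MaAAD and MaNonAD only Tlr13 was called, 1 of 10 beside 0.353% of tested genes, with a log2 fold change of 2.17 ± 0.53 (SE) and an adjusted p of 0.0497, at the edge of the threshold. Tlr8 (1.81 ± 0.45, SE, adjusted p = 0.0502), Tlr1 (1.99 ± 0.58, SE, adjusted p = 0.0574) and Tlr7 (1.16 ± 0.34, SE, adjusted p = 0.0605) lay just outside it. MaAAD and MaNonAD libraries did not overlap for Tlr1, Tlr8 and Tlr13, 3 of 10 beside 2.97% of all tested genes. The call of Tlr13 was lost without MaAAD7 (1.68, adjusted p = 0.165) and without MaNonAD2, MaNonAD3 or MaNonAD4. For those MaNonAD libraries the log2 fold changes were 1.95, 2.18 and 1.97, with adjusted p from 0.121 to 0.288. In each of these fits 0 of all tested genes were called, so the loss was not particular to Tlr13. Without MaNonAD1, 4 receptors were called, where 2.44% of tested genes were called in either direction, beside 0.353% with all libraries.

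Between the sexes no receptor was called, in any of the 3 conditions. In controls, where 1.51% of tested genes were called in either direction, Tlr4 was lower in MaCon than in FeCon by -0.49 ± 0.12 (log2, SE, adjusted p = 0.00488), which is under the fold threshold. The X-linked receptors had log2 differences of -0.15 (Tlr7), -0.42 (Tlr8) and -0.80 (Tlr13) between MaCon and FeCon, with adjusted p of 0.727, 0.389 and 0.165. Between MaNonAD and FeNonAD, where 0.0485% of tested genes were called, the 10 log2 differences lay from -0.31 to 0.56. Between MaAAD and FeAAD, where 0.0693% were called, they lay from -0.03 to 0.34. The approximate 95% interval of the difference between MaAAD and FeAAD was -0.65 to 1.00 for Tlr1 and -0.40 to 1.09 for Tlr13, so a 2-fold higher level in males is within the interval for Tlr13 and just outside it for Tlr1. No receptor was called in the tests of a sex difference in the NonAD response (0.298% of tested genes called), in the AAD response (0.52%) or in the step from NonAD to AAD (0.0%). At an unadjusted p under 0.05, 1 of 10 passed for the NonAD response, Tlr13 at 1.36 ± 0.62 (SE, adjusted p = 0.349), where 12.1% of tested genes did. Without MaNonAD1 that Tlr13 value was 0.85 (adjusted p = 0.723). For the AAD response 2 of 10 passed, Tlr4 and Tlr13, where 15.4% of tested genes did, so both shares are near those of all genes.

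The make-up of the receptor transcripts differed along with these levels. Taking each receptor per kilobase and summing all 10 in a library, Tlr4 made up 59.3% ± 5.1 of the sum in FeCon (SD, n = 10). Its share was 45.5% ± 5.0 in FeNonAD (SD, n = 8) and 29.9% ± 5.2 in FeAAD (SD, n = 9). In the male groups it was 53.4% ± 6.1 (SD, n = 10), 38.0% ± 9.3 (SD, n = 4) and 26.4% ± 5.9 (SD, n = 7). Every AAD library had a smaller Tlr4 share than every control of its sex, with a highest share of 36.7% in FeAAD against a lowest of 47.3% in FeCon, and 34.8% in MaAAD against 45.0% in MaCon. The share of Tlr13 went from 2.4% to 9.0% in females and from 1.7% to 10.6% in males, and that of Tlr1 from 1.1% to 6.7% and from 1.3% to 7.5%. The share of Tlr2 was 18.4% in FeCon and 24.1% in FeAAD, and 19.7% in MaCon and 25.1% in MaAAD. These shares are descriptions and were given no test.

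**Figure D3:**
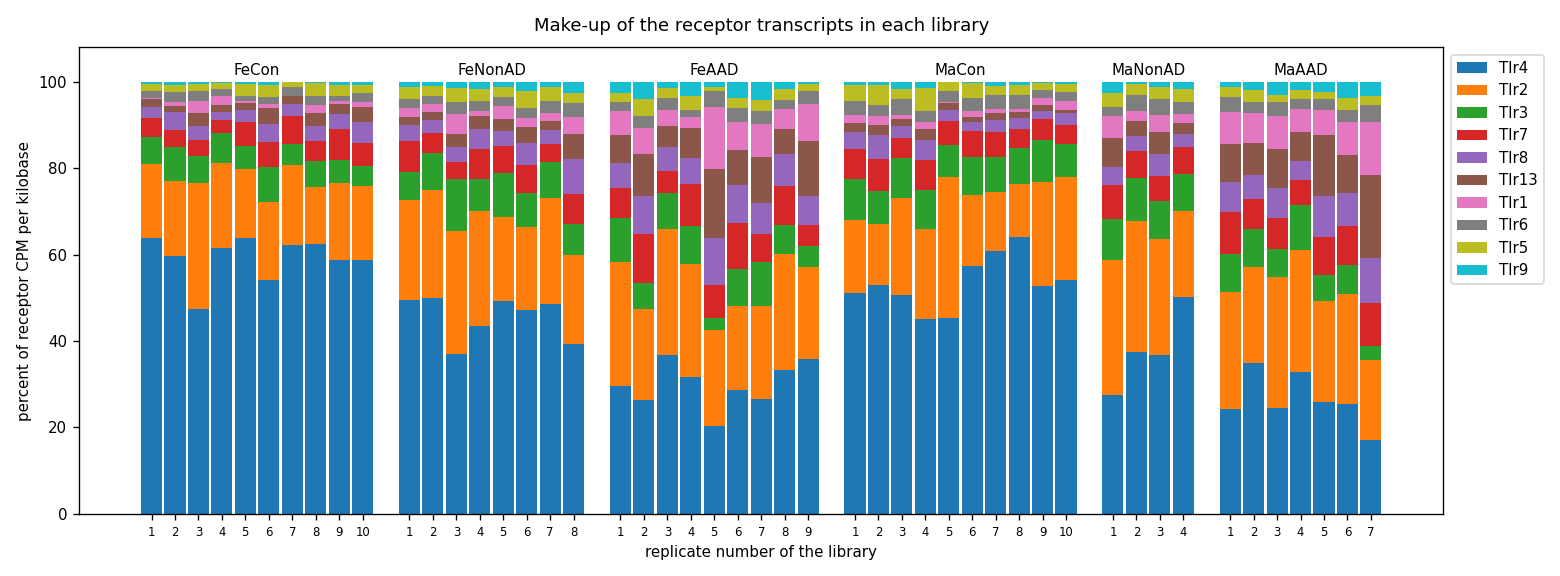
Percent of the summed receptor CPM per kilobase that each of the 10 receptors holds, with 1 bar per library, in 6 groups. The Tlr4 part falls from a mean of 59.3% in FeCon to 29.9% in FeAAD and from 53.4% in MaCon to 26.4% in MaAAD, and FeAAD5 and MaAAD7 have the smallest Tlr4 parts of their groups at 20.3% and 17.1%.

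In the lesioned aortas Tlr4 and Tlr2 stood close together per kilobase. In FeAAD they were at 11.1 ± 2.33 and 9.24 ± 3.53 CPM per kilobase (SD, n = 9), with Tlr4 above Tlr2 in 8 of 9 libraries, and in MaAAD at 10.9 ± 1.96 and 10.5 ± 2.15 (SD, n = 7), with Tlr4 above in 3 of 7. Tlr13, which had ranked 6 in FeCon and 8 in MaCon, ranked 3 by its mean in both AAD groups, at 4.01 ± 3.67 and 5.08 ± 4.15 CPM per kilobase. Its place over Tlr7 rests on few libraries in females, as it was above Tlr7 in 3 of 9 FeAAD libraries, against 5 of 7 MaAAD libraries. Tlr5 was the lowest receptor by its mean in both AAD groups, at 0.89 and 0.947 CPM per kilobase. It was not separated from Tlr9, which was the higher in 4 of 9 FeAAD and 4 of 7 MaAAD libraries.

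Markers of macrophages moved with the receptors. Of 10 listed macrophage markers, 9 were called higher in FeAAD and in MaAAD against control, with Mertk as the exception, and their summed level was 497.6 to 861.6 CPM in FeCon, 846.3 to 6146 in FeAAD, 465.1 to 779.9 in MaCon and 1079 to 4229 in MaAAD. No defining macrophage marker was at 0. Neutrophil markers were called higher in 7 of 7 tested in females and 5 of 7 in males. Their summed levels were 7.95 to 19.7 CPM in FeCon and 11.5 to 1157 in FeAAD, and 9.68 to 20.2 in MaCon and 12.8 to 405.2 in MaAAD. The FeAAD median was 17.7 CPM, with FeAAD5 at 1157 and FeAAD9 at 269.5 CPM. Ly6g, a defining marker of neutrophils, was at 3 counts or fewer in every library of 5 of the 6 groups, all but FeAAD. B cell markers were called higher in 5 of 5 tested in FeAAD, 3 of 5 in MaAAD, 4 of 5 in MaNonAD and 1 of 5 in FeNonAD against control. Of 6 conventional dendritic cell markers 5 were called higher in both AAD comparisons and 2 in FeNonAD, where Tlr9 was called. No T cell marker was called among 6 in any comparison with control, although 3 of 6 were called higher in MaCon than in FeCon, where MaCon2 had a summed level of 105.9 CPM and no other control more than 12.5. Of 3 tested markers of plasmacytoid dendritic cells, known carriers of Tlr7 and Tlr9, none was called in females and 1 was called lower in males. Without FeAAD5 the female counts were 9 of 10 for macrophages, 5 of 7 for neutrophils and 5 of 5 for B cells. That fit kept FeAAD9, which had the highest B cell marker level of its group, at 28.8 CPM against a median of 6.18. Without MaAAD7 the male counts were 9, 3 and 2, with no plasmacytoid marker called. Smooth muscle markers were called lower in 3 of 6 in both AAD comparisons, and fibroblast markers were called higher in 2 of 6. These counts were the same without FeAAD5 and without MaAAD7. Over all tested genes 2.78% were called lower in FeAAD and 2.18% in MaAAD against control. No endothelial marker was called among 6. In FeAAD 3 of 6 heart muscle markers, 1 of 4 tested skeletal muscle markers and 1 of 6 fat cell markers were called lower, and in MaAAD none. Without FeAAD5 these counts were 3, 0 and 0, and without MaAAD7 they were 0, 1 and 0. The part of cell numbers in the receptor differences was not tested.

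Set against the macrophage markers, the receptors did not move alike. Per 1000 CPM of summed macrophage marker, the median Tlr1 level was 1.11 CPM in FeCon, 2.31 in FeNonAD and 4.22 in FeAAD, and 1.19, 2.36 and 4.86 in the male groups. The male ranges, 0.239 to 1.81 in MaCon and 3.47 to 6.96 in MaAAD, did not overlap, while the female ones did. Tlr13 had medians of 3.04 in FeCon and 7.65 in FeAAD, and of 2.38 in MaCon and 8.38 in MaAAD, where the ranges of 0.670 to 2.99 and 6.15 to 13.3 were again apart. Tlr9 medians were 0.719 and 2.25 in FeCon and FeAAD, and 0.723 and 2.07 in MaCon and MaAAD. Tlr7 had medians of 8.20, 7.69 and 6.83 in the female groups and 6.93, 6.98 and 6.73 in the male groups, but set against the median marker in place of the sum, the male ratio was higher in MaAAD by 0.36 on the log2 scale. The Tlr4 ratio went from a median of 99.7 in FeCon to 27.7 in FeAAD and from 69.5 in MaCon to 20.8 in MaAAD, with no overlap in either sex. A ratio within a library shows unequal change of its parts and no more.

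**Figure D4:**
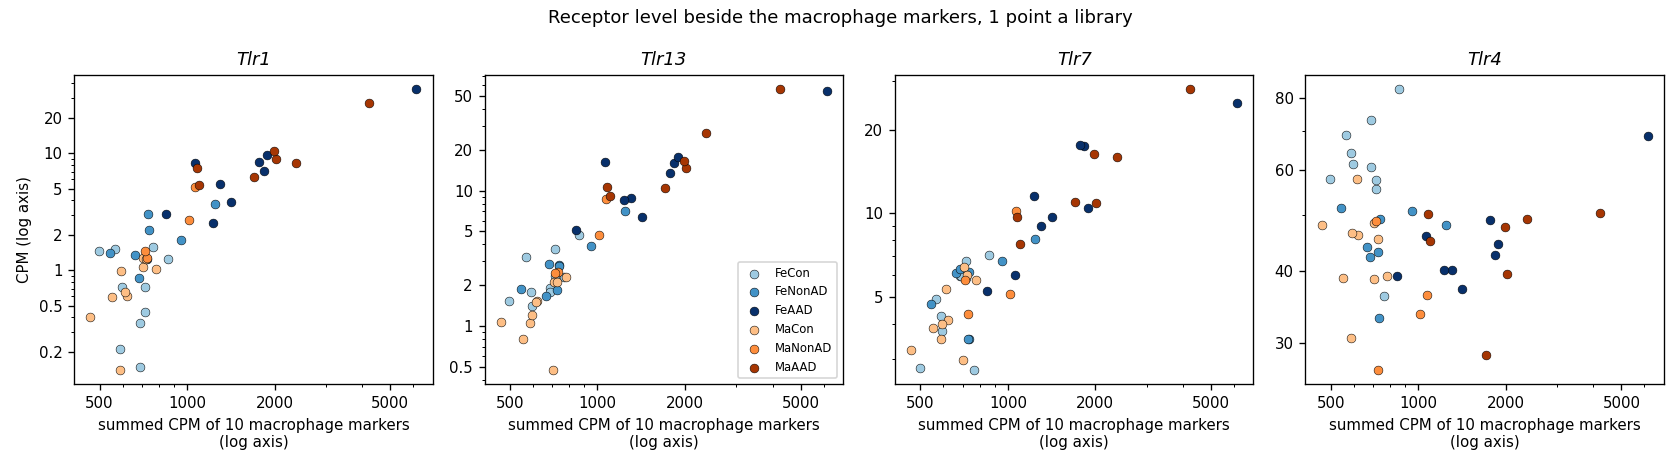
Level of Tlr1, Tlr13, Tlr7 and Tlr4 in CPM against the summed CPM of 10 macrophage markers, both on log axes, with 1 point per library coloured by group. Tlr1, Tlr13 and Tlr7 are high where the markers are high, up to FeAAD5 and MaAAD7 at 6146 and 4229 CPM of markers, and Tlr4 shows no such rise across groups, although it is highest in FeAAD5, MaAAD7 and FeCon10 within their own groups.

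For each receptor the genes whose standardized log2(CPM + 1) over the 48 libraries was nearest were found among 13710 genes, by the root mean square difference in SD units, where the median gene lay at about 1.44. The libraries share the group differences, so nearness describes these data only. Nearest to Tlr13 were Inpp5d (0.235) and Itgam (0.239), to Tlr8 were Inpp5d (0.270) and Tlr13 itself (0.281), and to Tlr1 were Lcp1 (0.264) and Fcgr1 (0.265). Tlr9 lay nearest to Adgre1 (0.397) and Cybb (0.398), and Tlr7 to Gng2 (0.354) and Tlr8 (0.360). The surface receptors Tlr2 and Tlr6 had less close neighbours, Evi2a (0.418) and Mlkl (0.440) for Tlr2 and Snx5 (0.430) and Cysltr1 (0.430) for Tlr6. Farthest from any other gene were Tlr3, with Gbp7 (0.516) and Sertad4 (0.531), Tlr4, with Picalm (0.519) and Rbm7 (0.525), and Tlr5, with Cd300ld5 (0.636) and F13a1 (0.687).

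Genes that work with the receptors were read from lists of their roles. Of 7 co-receptors and ligand carriers, 3 were called higher in FeAAD and 4 in MaAAD against control, with list medians of 0.91 and 1.33 (log2) beside 0.0013 and -0.0296 over all genes. The female median was 0.59 without FeAAD5. Cd14, which hands lipopolysaccharide to Tlr4, averaged 12.9 CPM in FeCon and 44.6 in FeAAD (log2 fold change 1.79 ± 0.29, SE, adjusted p = 2.6e-06), and 8.83 in MaCon and 42.2 in MaAAD (2.26 ± 0.31, adjusted p = 2.1e-07). Ly86 (3.00 ± 0.36 in females and 2.80 ± 0.37 in males) and Cd180 (2.47 ± 0.34 and 3.13 ± 0.36), which form a receptor-like pair with each other, were called too. Lbp, the lipopolysaccharide-binding protein, was called in males at 1.33 ± 0.30 and had 0.64 ± 0.29 in females (adjusted p = 0.066). Ly96, the partner without which Tlr4 cannot bind lipopolysaccharide, had 0.92 ± 0.25 and 0.80 ± 0.27, under the fold threshold, with 0.59 without FeAAD5 and, no longer passing, 0.70 without MaAAD7 (adjusted p = 0.0524). Cd14 had 1.28 without FeAAD5. Cd180 was the only member of this list called between MaNonAD and MaCon, at 1.75 ± 0.42 (adjusted p = 0.03).

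Of 8 genes for receptor folding, trafficking and endosomal support, 4 were called higher in each sex, with list medians of 0.91 and 0.84. Slc15a3, a transporter of the endosomal membrane, had log2 fold changes of 3.19 ± 0.45 and 3.79 ± 0.48 (SE), with 2.50 in females without FeAAD5. Pld4, an endosomal nuclease, had 1.97 ± 0.25 and 1.86 ± 0.26, and Unc93b1, which carries the nucleic acid receptors to endosomes, had 1.86 ± 0.23 and 1.68 ± 0.23. The protease Lgmn had 1.13 ± 0.19 and 1.26 ± 0.20, but fell under the fold threshold without FeAAD5 (0.84) and without MaAAD7 (0.97), which left 3 of 8 called in each sex. Among 5 adaptors Pik3ap1 (2.49 ± 0.32 and 2.83 ± 0.33) and Ticam2 (1.57 ± 0.27 and 2.03 ± 0.28), which joins Tlr4 to Ticam1, were called higher in both sexes. Myd88, the adaptor of most of the receptors, had 0.59 ± 0.16 and 0.68 ± 0.17, with adjusted p of 0.0025 and 0.0014.

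Of 16 signalling kinases and ubiquitin ligases none was called in either sex, with list medians of -0.02 and 0.11. Among 9 transcription factors the interferon regulatory factors Irf8 (2.25 ± 0.29 and 2.45 ± 0.30, SE), Irf7 (1.53 ± 0.36 and 1.39 ± 0.37) and Irf5 (1.27 ± 0.22 and 1.60 ± 0.23) were called higher. Irf3, of the same family, was not called, and none of the NF-κB subunits was. Of 12 inhibitors only Tnip3 was called, a gene averaging under 10 counts and named after its value was seen (2.69 ± 0.54 and 3.36 ± 0.60).

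Of 14 target cytokines and enzymes 10 could be tested, and 9 were called higher in each sex, with list medians of 3.66 and 3.37. Il1b averaged 0.152 CPM in FeCon and 18.3 in FeAAD (log2 fold change 6.84 ± 0.82, SE), and 0.191 in MaCon and 8.48 in MaAAD (5.41 ± 0.80). Il6 had 6.26 ± 0.92 and 6.25 ± 1.01, and was called between FeNonAD and FeCon too, at 3.69 ± 0.97 (adjusted p = 0.0079). The chemokine genes Ccl3 (4.17 ± 0.74 and 4.42 ± 0.82) and Cxcl2 (3.74 ± 0.65 and 3.68 ± 0.70) had the next largest female values among members that averaged at least 10 counts. Without FeAAD5 the female values were 5.45 for Il1b, 5.62 for Il6, 3.03 for Ccl3 and 2.61 for Cxcl2, and without MaAAD7 the male values were 4.81, 5.62, 4.01 and 2.95, all still called. FeAAD5 alone held 109.0 CPM of Il1b, where the other 8 FeAAD libraries had a median of 5.19.

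Of 10 listed genes for host molecules reported to act on Tlr2 or Tlr4, 9 were tested and 4 were called higher in each sex. S100a8 and S100a9, which are also neutrophil markers, had the largest values, at 6.50 ± 1.12 and 5.91 ± 1.04 (SE) in females and 3.92 ± 1.06 and 3.88 ± 1.02 in males. These values are carried by few libraries, as S100a8 was at 374.5 CPM in FeAAD5 and had a median of 1.06 CPM in the other 8 FeAAD libraries. Without FeAAD5 S100a8 and S100a9 had 4.02 and 3.69 and were still called, with FeAAD9 kept, whose neutrophil marker level was 269.5 CPM. Without MaAAD7 they had 2.12 and 2.23 and did not pass (adjusted p = 0.127 and 0.0896), which left 2 of the list called higher in males. The matrix proteins Tnc (2.37 ± 0.24 and 1.89 ± 0.25) and Fn1 (1.25 ± 0.16 and 1.47 ± 0.17) were called as well, Tnc also between FeNonAD and FeCon (1.02 ± 0.24) and Fn1 also between MaNonAD and MaCon (1.07 ± 0.20). Hsp90aa1, a heat shock chaperone, went the other way and was called lower in MaAAD at -1.15 ± 0.22, where 2.18% of tested genes were called lower, and in MaNonAD at -1.08 ± 0.28 (adjusted p = 0.0498), where 0.097% were. Of the mouse receptors outside the 10, Tlr12, which also averaged under 10 counts, was called higher in FeAAD at 1.50 ± 0.44 (0.175 CPM in FeCon and 0.517 in FeAAD) and had 0.10 ± 0.42 in MaAAD. It was already higher in MaCon than in FeCon, by 1.38 on the log2 scale, and this difference was called. Tlr11 did not pass the filter on low counts.

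**Figure D5:**
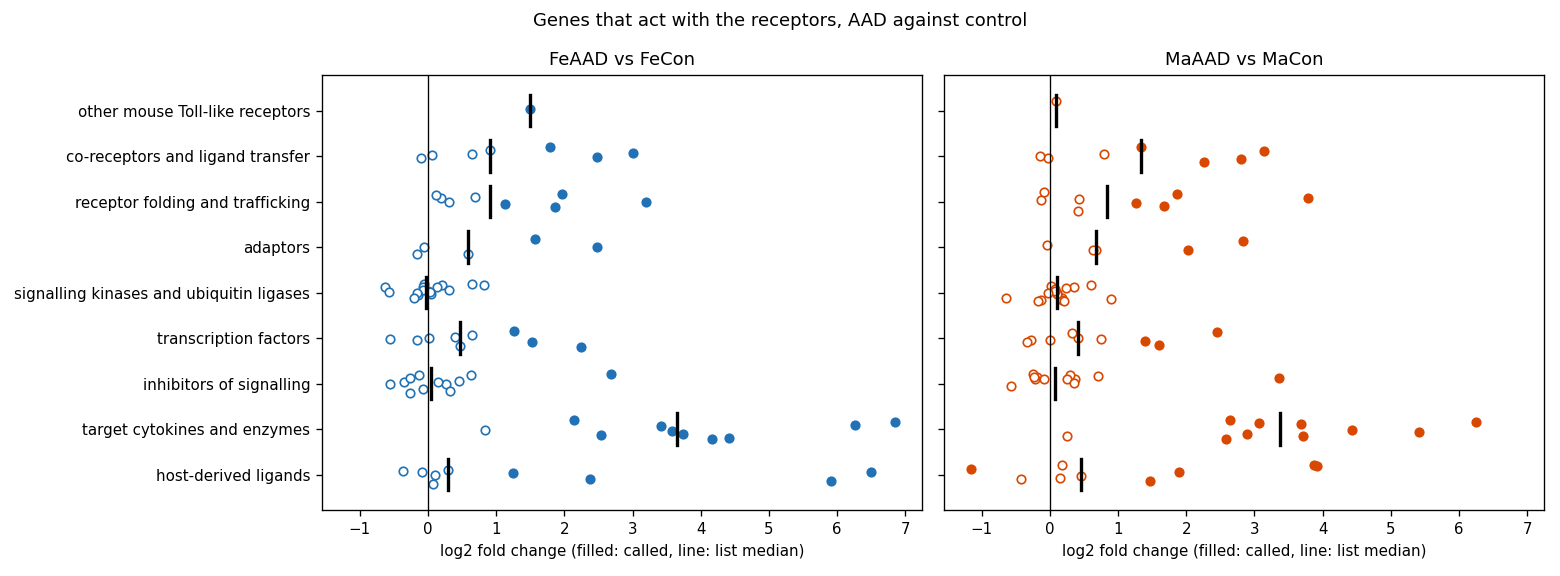
Log2 fold change between AAD and control of the tested genes in 9 lists, females on the left and males on the right, with 1 point per gene, filled where it was called, and a line at the list median. The target cytokines have medians of 3.66 and 3.37, while the 16 kinases and ubiquitin ligases lie around 0 and hold no filled point.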

How the data were processed

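RNA-seq of 48 mouse thoracic aortas was used, and groups were taken from the sample labels. The authors made strand-specific libraries and deposited expected counts per gene, not scaled to library size. Per the labels' processing notes, these came from Bowtie2 and RSEM 1.3.1 on GRCm39. Of the values, 4.99% were not whole, and all were rounded. edgeR 4.0.16 tested 14431 genes kept by filterByExpr in 1 quasi-likelihood fit of 6 group means, with TMM factors of 0.874 to 1.08 and Benjamini-Hochberg adjustment over all genes. Nothing in the labels says that litters or batches differed, and p-values measure the spread between mice. The authors housed males and females apart, in more than 1 cage per group, and named cage as a possible confounder of their microbiome data. The samples carry no cage label, so the fit treats mice of a cage as independent. A difference between the sexes cannot be told apart from one of housing. Lengths came from GENCODE M21. DESeq2 1.42.0 and other settings were alternatives. The test was checked on simulated data. The labels do not say that mice with the same replicate number were paired, and the main fit does not pair them. The receptors, gene lists and tests were chosen with earlier results of these data known. Pathway genes named are the up to 4 of each list that were called, averaged at least 10 counts and changed most in FeAAD, and other named members were chosen after their values were seen.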

Additional observations from a re-analysis of the deposited data

Results flagged for a closer look

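Dixon's test on log2(CPM + 1), run in 60 groups of a receptor and a condition, found 11 values far from the others of their group, where chance gives about 1 in 20. FeAAD5 accounts for 5 of them, at 35.6 CPM for Tlr1, 55.5 for Tlr2, 68.6 for Tlr4, 11.2 for Tlr6 and 30.5 for Tlr8. MaAAD7 stood out for Tlr1 at 26.9 CPM and for Tlr6 at 10.1 CPM. FeNonAD8 stood out for Tlr6 at 3.44 CPM, and FeNonAD6 for Tlr5 at 3.98 CPM. On the low side, Tlr4 stood out in FeCon3 at 36.2 CPM and in FeNonAD3 at 33.1 CPM. FeAAD5 and MaAAD7 also had the highest summed macrophage marker levels of their groups, and the part of those markers in the receptor levels was not tested.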

How the results depend on the processing

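The libraries left out were FeCon10, FeNonAD8, each MaNonAD library, FeAAD5 and MaAAD7, and leaving out the last 2 was chosen after seeing the data. For AAD against control, with 7 called in each sex, the counts stayed within 1.5 times under every setting run, with 5 without FeAAD5, 6 without MaAAD7, and 10 in females and 9 in males at an adjusted p alone. Over all tested genes 10.9% were called without FeAAD5 and 10.1% without MaAAD7, beside 12.7% and 11.4% with all libraries. Where few receptors were called the count moved. For FeNonAD against FeCon, with 1 called, DESeq2 gave 2, an adjusted p alone 2 and a fit of only those groups 2. These libraries left out in turn gave 0 to 1. Of all tested genes the main fit called 2.75%, DESeq2 3.15% and the fit of only those groups 2.27%. For MaNonAD against MaCon, with 0 called, DESeq2 gave 1 and a fit of only those groups 2. The shares of all tested genes called in either direction were 0.478% in the main fit, 0.64% with DESeq2 and 1.02% with only those groups. For MaAAD against MaNonAD, with 1 called, DESeq2 gave 4, DESeq2 size factors 2 and no robust estimation 2. No filter on low counts and a fit of only those groups each gave 0, and these libraries left out in turn gave 0 to 4. Over all tested genes the share called was 0.353% in the main fit and 3.54% with DESeq2. It was 1.16% with DESeq2 size factors, 0.686% with no robust estimation, and 0 with no filter and with only those groups. For MaCon against FeCon an adjusted p alone gave 1. The cause of these shifts was not tested.

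Values near 0 changed sign. The Tlr4 difference of FeAAD against FeNonAD was 0.0041 with DESeq2, 0.004 with its size factors, 0.0003 with no filter and 0.0046 with only those groups, and -0.0956 to 0.013 with these libraries left out in turn. Tlr5 in MaAAD against MaCon lost its adjusted p under 0.05 without MaAAD7 (0.174), and with no filter, only those groups, or the replicate block (0.0518 to 0.109). Tlr4 in MaAAD against MaCon came to -0.0209 without MaAAD7. Tlr5 in MaNonAD against MaCon ran from -0.0313 to 0.4097 with these libraries left out in turn. With the median of macrophage markers in place of their sum, the log2 ratio of MaAAD to MaCon was 0.36 for Tlr7, reversed, and -0.55 for Tlr5. Of the other alternatives for log2 fold changes, 576 kept direction and side of the threshold, 23 passed it newly and 13 lost it. For the differences between the sexes and between their responses that are given as ranges or counts, 61 of 620 changed sign and none passed the test (lowest adjusted p 0.0707).

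With the replicate number as a block, 0 receptors were called for FeNonAD against FeCon and 0 for MaAAD against MaNonAD. Of all tested genes, 2.22% were called in the first comparison and 0 in the second. Of the pairs that share a number, 3 of 8 correlated over 0.1 in the first and 2 of 4 in the second. Their mean correlations were 0.045 and 0.033, and the highest mean, 0.145, was between MaAAD and FeAAD. Such correlations cannot exclude a shared batch. Tlr1 and Tlr9 have few counts in controls, which limits their precision there.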
